A study of Mus musculus with 57 samples.

Results

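Interferon-stimulated genes are the genes that a cell switches on when interferon binds its receptor. Here 49 of them, given by name as a list, were followed gene by gene in RNA from brain microglia of wild-type (WT) mice and of littermates deficient in P2RY12 (KO), a receptor for extracellular nucleotides that resting microglia express at a high level. Each was looked up by symbol in the first column of 2 deposited count tables, of 53278 and 50565 genes. All 49 were found in both and all 49 passed the filter on low counts in both, Cgas in the first table under its older symbol Mb21d1. The list was not chosen by measured values, although earlier results of these data were known when it was drawn up.

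Microglia, isolated as CD11b-positive cells from adult brain per the labels, were profiled in 2 experiments. In the LPS experiment, 33 libraries come from WT and KO animals labelled either ns, which the labels do not define, or LPS, lipopolysaccharide of bacterial cell walls injected into the peritoneum at 1 mg/kg. The groups are WT ns with 8 libraries, WT LPS with 9, KO ns with 8 and KO LPS with 8. The sex experiment has 18 animals with a column of counts, namely 4 WT and 5 KO males and 4 WT and 5 KO females, with no treatment named in their group labels. The series' design text says that the animals were adult and gives no age, and the labels give no strain, no allele of the P2RY12 deletion, no sex for the LPS experiment and no time after LPS. Nothing in the labels says which libraries of a group came from separate animals in the LPS experiment, so its p-values measure the spread between libraries.

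Type I interferons bind the receptor pair IFNAR1 and IFNAR2, whose kinases activate a complex of transcription factors that includes STAT2 and IRF9. This complex enters the nucleus and binds a short DNA motif, the interferon-stimulated response element, in the promoters of their target genes. The products block viruses at entry, at translation and at assembly, sense foreign nucleic acid, and damp the signal again. LPS can start the same programme without any virus, because its receptor TLR4 signals through the adaptor TICAM1 towards interferon production, and microglia are among the brain cells known to respond in this way.

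The response element is shown first because the pathway acts through it and a share of the members hold it. The search was for its core, GAAANNGAAA, where N is any base, on both strands, in the windows of 300 bases (250 before to 50 after the start site) that RefSeq gives on the build GRCm38.p6. Of the 49 members, 38 had such a window and 11 had no entry. The core was present in 18 of the 38 members (47.4%), against 3.99% of 27025 genes with a window. This is a match of letters, found after the list was known, and overlapping matches were counted as present.

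The 11 stretches of 60 bases below lie wholly upstream of a start site and are written 5′ to 3′ on the strand of the gene, with the core, or its reverse complement, in capitals. They were picked to show close relatives beside each other and members whose response is described later.
Ifit1, chr19:34640769-34640828, plus strand: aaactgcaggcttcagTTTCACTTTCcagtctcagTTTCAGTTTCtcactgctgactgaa
Ifit3, chr19:34583365-34583424, plus strand: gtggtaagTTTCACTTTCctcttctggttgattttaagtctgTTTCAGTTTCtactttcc
Ifit3b, chr19:34607761-34607820, plus strand: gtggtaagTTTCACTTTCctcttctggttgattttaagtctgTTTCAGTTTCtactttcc
Isg15, chr4:156200856-156200915, minus strand: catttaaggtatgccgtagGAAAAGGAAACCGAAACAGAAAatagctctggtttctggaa
Rsad2, chr12:26456538-26456597, minus strand: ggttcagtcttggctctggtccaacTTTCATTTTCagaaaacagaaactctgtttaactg
Bst2, chr8:71537565-71537624, minus strand: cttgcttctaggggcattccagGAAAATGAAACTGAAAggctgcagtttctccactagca
Oas1a, chr5:120907526-120907585, minus strand: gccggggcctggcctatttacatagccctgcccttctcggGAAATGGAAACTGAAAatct
Oas1g, chr5:120887614-120887673, minus strand: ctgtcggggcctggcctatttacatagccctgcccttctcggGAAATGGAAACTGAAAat
Ifi207, chr1:173741816-173741875, minus strand: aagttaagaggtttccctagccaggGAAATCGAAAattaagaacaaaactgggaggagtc
Ifi211, chr1:173913049-173913108, minus strand: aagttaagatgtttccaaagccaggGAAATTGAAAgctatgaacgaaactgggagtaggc
Mndal, chr1:173880189-173880248, minus strand: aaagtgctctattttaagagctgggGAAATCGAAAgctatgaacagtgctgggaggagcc

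The stretches of Ifit1, Ifit3 and Ifit3b each hold 2 cores, and that of Isg15 holds 3 that overlap. Those of Bst2, Oas1a and Oas1g each hold 2 that overlap. Relatives were compared in other windows of 60 bases, laid on the first core, which run past the start site in Oas1a, Oas1g, Ifi211 and Mndal. In these windows Ifit3 and Ifit3b were identical at 60 positions and Oas1a and Oas1g at 59. Ifi207 and Ifi211 shared 50 positions, and Mndal shared 37 with Ifi207 and 39 with Ifi211. The printed stretches lie upstream of the start site used, and whether they are transcribed from another start was not examined. Members of one family can have similar transcripts, which were not compared here, so values of the Ifit, Oas1, Ifitm and Ifi200 genes are uncertain as far as reads were split between relatives.

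On the build of the deposited counts, GRCm39, the members lie on 16 chromosomes, several of them in clusters of relatives. The 4 Ifit genes lie together on chromosome 19 between 34527961 (the start of Ifit2) and 34627409 (the end of Ifit1). The Ifi200 genes lie on chromosome 1 between 173458425 (Ifi209) and 173740650 (Ifi211). The counted spans of the sex table include introns, and 15 of the 49 spans overlap another gene there, among them Parp9 with Dtx3l and Ifit1 with Ifit1bl1, and since the strand setting is not given in the sources used here, reads in a shared stretch may not be told apart.

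Levels are in CPM, counts per 1000000 counts of the library after TMM scaling, a correction of library totals for composition. Library totals (in units of 1000000 counts, M) ran from 15.91 to 45.31 M in the LPS experiment, with a median of 24.68 M and 1 library, WT ns 4, at 168.4 M, and from 58.54 to 318.5 M in the sex experiment. WT LPS 8 and WT LPS 9 differed little beyond sampling noise and were summed to 1 sample, which leaves 32 samples. P2ry12, the deleted gene, had a log2 fold change of KO over WT of -3.42 ± 0.12 over both sexes (± SE, 10 KO and 8 WT animals, adjusted p = 4.52e-13, edgeR's quasi-likelihood test). Reads of P2ry12 remained in KO, at 585 to 1243 CPM in KO ns and 84.2 to 154 CPM in KO LPS.

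Some libraries of the LPS experiment go against their label or stand apart from their group. P2ry12 falls with LPS, and Saa3 is an acute-phase gene that LPS induces. Both contradict the treatment label in the 4 WT libraries that carry number 2 in their library names. Saa3 was at 1781 and 2491 CPM in WT ns 1 and WT ns 5 (names by label), while the other 6 WT ns libraries had at most 64.3 CPM. It was at 1.59 and 3.21 CPM in WT LPS 1 and WT LPS 6, again by label, while the other WT LPS samples had at least 1418 CPM. P2ry12 showed the reverse, at 481 and 927 CPM in the first pair and 4461 and 12154 CPM in the second. These 4 libraries form groups of their own here, and counts and medians for WT, with the values of most members described, are also given with every library in its labelled group ("by the labels"). WT LPS 7, KO ns 6 and KO LPS 5 stand apart in another way, with a median correlation to their group of 0.853 to 0.886 against at least 0.936 for the others, the number 2 libraries of WT aside. With WT LPS 6 they hold the highest summed mitochondrial transcripts, 61762 to 116810 CPM against at most 29116 CPM.

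The libraries of the LPS experiment fall into 2 sets by name, each holding all 4 groups, and the set was a term of the fit. The labels give no sex here, and Xist, the RNA that silences an X chromosome in female cells, was at 0.68 to 2.11 CPM in the 16 samples of set 1 and at 786 to 2700 CPM in the 16 of set 2. A fit within 1 set is therefore also a fit within 1 level of Xist, and set and sex as read from Xist cannot be told apart. The 4 libraries with the highest mitochondrial level are all in set 2.

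How LPS moved these genes was asked first in KO microglia, where 8 libraries stood against 8. LPS raised 43 of the 49 members and lowered 1, Mndal, at an adjusted p-value under 0.05 (edgeR's quasi-likelihood F test with Benjamini-Hochberg adjustment over 15857 genes, the rule for every call below). The median log2 fold change over the 49 was 1.53, while the median over all genes tested was -0.02. Among all genes tested, 13.1% were called higher and 15.2% lower in the same comparison. The 5 members not called were Cgas, Trim21, Ifi44, Ifi27l2a and Epsti1. In 24 members every KO LPS library lay above every KO ns library, as did 3.67% of all genes tested, and in 0 members did every one lie below. Without WT LPS 7, KO ns 6 and KO LPS 5, the count was 44 as well, of which 42 were among the 44 above, and the median was 1.32. Within library set 1 alone 43 were called (median 1.41), and within set 2 alone 23 (median 1.79). The shares of all genes called in these alternative fits are not given here. A change in count can thus not be read as particular to the members.

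WT microglia showed a rise of most members too once the number 2 libraries were set apart, leaving 6 samples against 6. LPS raised 34 members and lowered 1, again Mndal, with a median log2 fold change of 1.12. Of all genes tested 14.8% were called higher and 15.5% lower. In 29 members every WT LPS sample lay above every WT ns sample, as did 10.9% of all genes tested. The 34 make up 79.1% of the 43 members raised in KO, and 100% of them were raised in KO. With every library in its labelled group, 0 members and 0 genes in all were called in WT. Of the members, 31 had an unadjusted p under 0.05, the median was 0.70 and the lowest adjusted p was 0.0882. Counts at an unadjusted p, here and below, stand without the share of all genes at that level. DESeq2 called 38 with the number 2 libraries apart, and its share over all genes is not given here. Without the 3 libraries that stand apart, 39 were called, and within library sets 1 and 2 alone, 37 and 13. These counts too stand without a share over all genes and cannot be read as particular to the members.

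**Figure D1:**
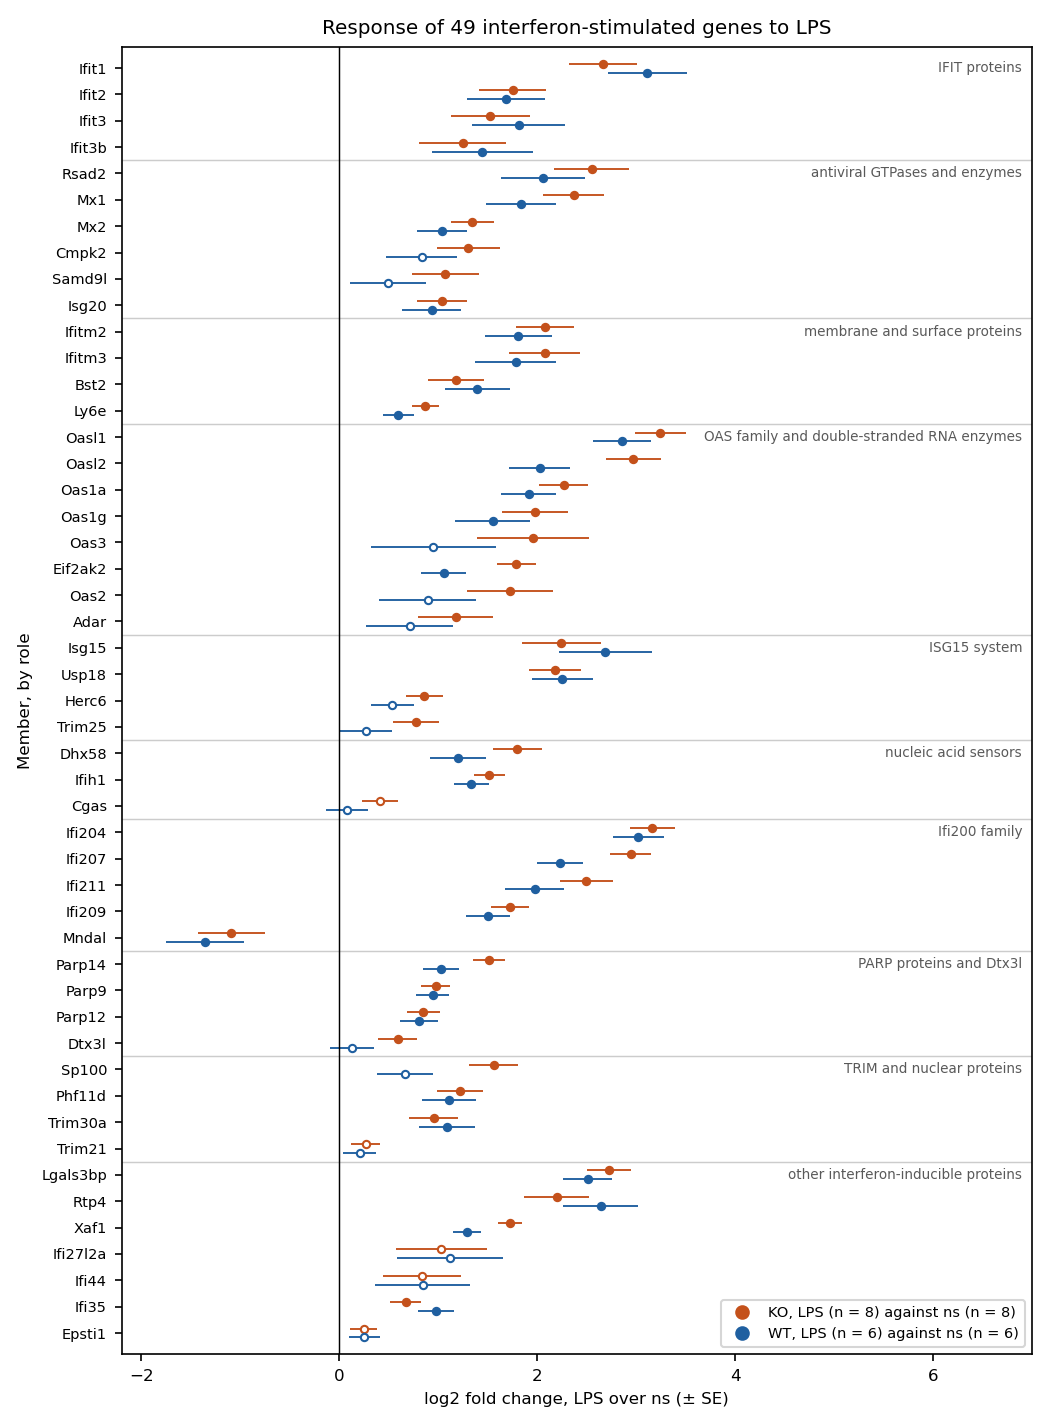
Log2 fold change of LPS over ns for each of the 49 members, with bars of 1 SE, in KO (orange, 8 libraries against 8) and in WT (blue, 6 samples against 6, number 2 libraries apart), ordered by role. Filled points are called at an adjusted p under 0.05 and open points are not. Mndal lies left of 0 in both genotypes and the other 48 members lie to the right.

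The IFIT proteins, which bind foreign RNA through tetratricopeptide repeats and stop its translation, rose as a family, 4 of 4 in each genotype. Ifit1 ran from 5.03 over a median of 6.80 to 10.6 CPM in KO ns and from 18.2 over 29.1 to 162 CPM in KO LPS. These groups do not overlap, and KO LPS 5 is the highest library. The change was 2.66 ± 0.34 on the log2 scale (± SE, adjusted p = 5.58e-07). In WT, Ifit1 went from 2.68, 3.89 and 6.85 CPM (lowest, median, highest) at ns to 15.5, 25 and 91.7 CPM with LPS, a log2 change of 3.11 ± 0.40 (adjusted p = 7.97e-07), or 1.83 (adjusted p = 0.096) by the labels.

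Ifit3, which forms complexes with Ifit1-like proteins, had the highest mean of the family. It ran from 12.2 over 17.2 to 55.6 CPM in KO ns and from 20.4 over 36.4 to 244 CPM in KO LPS. The groups overlap, with KO ns 6 and KO LPS 5 high in theirs, and the log2 change was 1.53 ± 0.40 (adjusted p = 0.00425). Its near-copy Ifit3b, whose upstream stretch is the same letter for letter, rose by 1.25 ± 0.44 in KO (adjusted p = 0.033), and that call was lost without the number 2 libraries of every group (adjusted p = 0.189), in library set 1 alone (0.0754) and without the 3 libraries that stand apart (0.0549).

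Among the antiviral GTPases and enzymes, 6 of 6 rose in KO and 4 of 6 in WT. Mx1, a dynamin-like GTPase that traps viral particles, ran from 10.9 over 21.4 to 33.6 CPM in KO ns and from 49.8 over 95.8 to 262 CPM in KO LPS, with no overlap. Its log2 change was 2.37 ± 0.31 in KO and 1.84 ± 0.35 in WT (adjusted p = 9.31e-07 and 0.000214, 0.177 in WT by the labels). Rsad2, or viperin, makes a nucleotide that ends viral RNA chains, and ran from 3.11 over 4.43 to 9.10 CPM in KO ns and from 12.9 over 20.3 to 119 CPM in KO LPS. Those groups are apart as well, and KO LPS 5 is far above the next library. Rsad2 changed by 2.55 ± 0.38 in KO and 2.06 ± 0.42 in WT (1.30 by the labels). Cmpk2, the mitochondrial nucleotide kinase encoded beside Rsad2, and Samd9l, a translation inhibitor, rose in KO but were not called in WT, where their log2 changes were 0.84 and 0.49.

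The membrane and surface proteins rose in both genotypes, 4 of 4. Ly6e, a lipid-anchored protein that blocks viral fusion, ran from 794 over 1016 to 1103 CPM in KO ns and from 1269 over 1898 to 2170 CPM in KO LPS. The groups do not overlap although the change is small, 0.87 ± 0.14 on the log2 scale (adjusted p = 1.56e-05). Ifitm2, which hinders the fusion of viruses taken up by the cell, ran from 6.83 over 13.2 to 30.0 CPM in KO ns and from 49.1 over 62.4 to 109 CPM in KO LPS. It changed by 2.08 ± 0.30 in KO and by 1.81 ± 0.34 in WT (1.30 by the labels). Bst2, or tetherin, which holds budding particles to the cell surface, rose by 1.18 ± 0.28 in KO and 1.40 ± 0.33 in WT (0.92 by the labels). Its KO groups overlap through KO ns 6, at 194 CPM. KO LPS 5 (388 CPM) and WT LPS 7 (371 CPM) were the highest of their groups.

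The OAS family and the enzymes that act on double-stranded RNA held the largest change of the list in KO, but not in WT. All 8 rose in KO and 5 of 8 in WT, with median log2 changes of 1.97 and 1.30. Oasl1, an OAS-like protein without synthetase activity, ran from 1.37 over 2.17 to 3.73 CPM in KO ns and from 12.5 over 19.5 to 41.4 CPM in KO LPS. Its log2 change was 3.24 ± 0.26 in KO (adjusted p = 1.17e-10) and 2.86 ± 0.29 in WT (adjusted p = 1.73e-08, or 0.0882 by the labels). Oas1a and Oas1g, synthetases of the oligoadenylates that activate RNase L, rose by 2.27 ± 0.25 and 1.98 ± 0.33 in KO.

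Adar, which edits adenosine to inosine in double-stranded RNA, was low in the libraries that stand apart. It ran from 19.1 over 94.6 to 103 CPM in KO ns and from 18.4 over 199 to 219 CPM in KO LPS. The lowest value of each group belongs to KO ns 6 and KO LPS 5, and WT LPS 7 and WT LPS 6 were low too, at 31.7 and 17.2 CPM. The log2 change of Adar was 1.18 ± 0.38 in KO (adjusted p = 0.0202) and 0.71 ± 0.44 in WT, where it was not called.

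**Figure D2:**
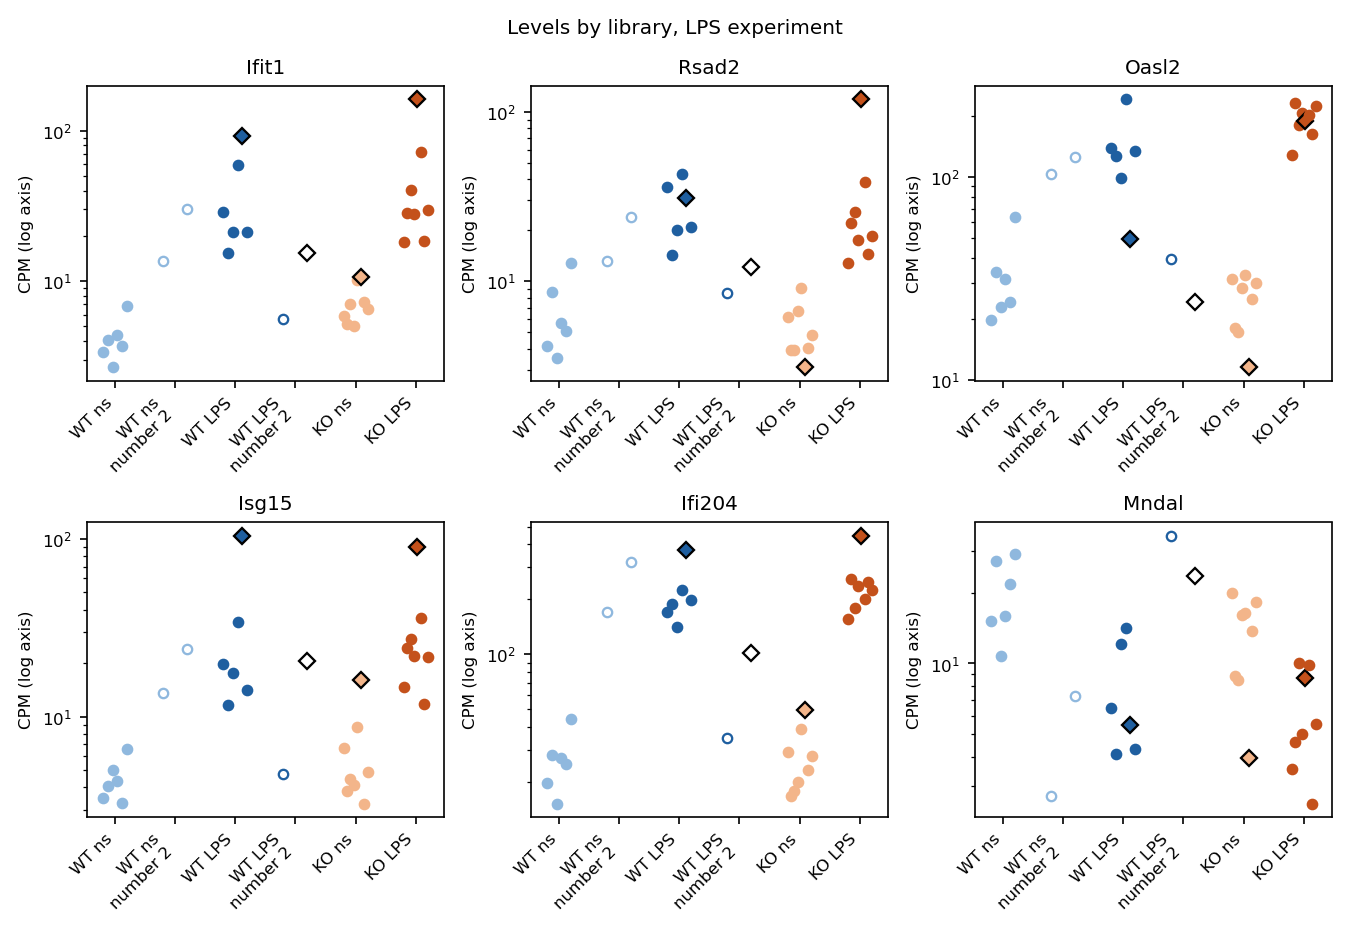
CPM on a log axis for 6 members, 1 point per library, by group of the LPS experiment. Open symbols are the WT libraries of number 2, and diamonds with a black edge are WT LPS 6, WT LPS 7, KO ns 6 and KO LPS 5. Ifit1 and Ifi204 separate ns from LPS in each genotype, the open symbols of WT ns lie above the filled ones in these 2 genes, and Mndal runs the other way.

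The ISG15 system attaches a ubiquitin-like protein to other proteins and removes it again. In KO 4 of 4 members rose and in WT 2 of 4. Isg15 itself ran from 3.24 over 4.70 to 16.1 CPM in KO ns and from 11.8 over 23.1 to 90.0 CPM in KO LPS, overlapping through KO ns 6. Its log2 change was 2.24 ± 0.40 in KO (adjusted p = 6.91e-05) and 2.69 ± 0.47 in WT (adjusted p = 6.88e-05, 0.104 by the labels). Usp18, the protease that takes ISG15 off and also restrains the interferon receptor, went from 6.33 to 23.8 CPM in KO ns to 26.5 to 117 CPM in KO LPS, which do not overlap, and rose by 2.18 ± 0.26 in KO and 2.26 ± 0.31 in WT (1.36 by the labels). Trim25, a ubiquitin ligase that acts on the RNA sensor RIG-I, ran from 23.4 over 57.4 to 62.7 CPM in KO ns and from 45.6 over 95.9 to 109 CPM in KO LPS, a log2 change of 0.77 ± 0.23 (adjusted p = 0.0112). Trim25 and Herc6, the ISG15 ligase of the mouse, were not called in WT.

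Of the nucleic acid sensors, Ifih1 and Dhx58 rose in both genotypes and Cgas in neither. Ifih1, or MDA5, which detects long double-stranded RNA, ran from 32.5 over 39.6 to 55.4 CPM in KO ns and from 87.7 over 103 to 223 CPM in KO LPS, with no overlap and a log2 change of 1.52 ± 0.15 (adjusted p = 1.16e-08). In WT it changed by 1.33 ± 0.18 (0.55 by the labels). Dhx58, or LGP2, a regulator of that sensor, ran from 11.8 over 24.1 to 29.3 CPM in KO ns and from 24.1 over 89.0 to 99.3 CPM in KO LPS. The groups overlap through KO LPS 5, and the log2 change was 1.80 ± 0.25 in KO and 1.20 ± 0.28 in WT (0.66 by the labels). Cgas, the sensor of cytosolic DNA, changed by 0.41 ± 0.18 in KO (adjusted p = 0.0944) and 0.08 ± 0.21 in WT.

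The Ifi200 family, nuclear proteins with a DNA-binding HIN domain, split within itself. Ifi204 ran from 16.8 over 25.4 to 49.7 CPM in KO ns and from 157 over 231 to 446 CPM in KO LPS, and from 15.2 over 25.9 to 44.1 CPM in WT ns to 140, 193 and 375 CPM in WT LPS. No group overlaps its counterpart, and the log2 changes were 3.16 ± 0.22 and 3.02 ± 0.26 (adjusted p = 1.35e-11 and 1.04e-09, 0.166 in WT by the labels). Ifi207, Ifi211 and Ifi209 rose with it, by 2.95 ± 0.21, 2.50 ± 0.27 and 1.72 ± 0.19 in KO.

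Mndal, another member of that family, fell, and its upstream stretch holds the core motif too. It ran from 3.95 over 14.9 to 20.0 CPM in KO ns and from 2.53 over 5.27 to 10.0 CPM in KO LPS, and from 10.8 over 18.8 to 29.1 CPM in WT ns to 4.13, 5.99 and 14.2 CPM in WT LPS. The groups overlap, and the log2 changes were -1.09 ± 0.34 and -1.36 ± 0.39 (adjusted p = 0.0155 and 0.00948). With every library in its labelled group the changes were -1.09 (adjusted p = 0.0814) in KO and -0.30 (adjusted p = 0.71) in WT, and without the number 2 libraries of every group the change in KO was -0.87 (adjusted p = 0.106). Mndal was at 2.74 CPM in WT ns 1 and 7.25 CPM in WT ns 5, and at 34.9 CPM in WT LPS 1 and 23.5 CPM in WT LPS 6.

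The PARP proteins and Dtx3l, which add or recognise ADP-ribose, had smaller changes, with 4 of 4 called in KO and 3 of 4 in WT. Parp14 ran from 72.0 over 114 to 156 CPM in KO ns and from 257 over 311 to 476 CPM in KO LPS, with no overlap. Its log2 change was 1.51 ± 0.16 in KO (adjusted p = 1.81e-08) and 1.03 ± 0.18 in WT (adjusted p = 7.22e-05, 0.372 by the labels). Dtx3l, the ubiquitin ligase that partners Parp9, rose by 0.59 ± 0.19 in KO and was not called in WT.

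Of the TRIM and nuclear proteins 3 of 4 rose in KO and 2 of 4 in WT. Trim30a, a ubiquitin ligase family member that restrains inflammatory signalling, ran from 137 over 160 to 386 CPM in KO ns and from 214 over 322 to 831 CPM in KO LPS, with KO ns 6 and KO LPS 5 highest in their groups. Its log2 change was 0.95 ± 0.24 (adjusted p = 0.00361). Sp100, a component of nuclear bodies, ran from 23.1 over 46.9 to 73.4 CPM in KO ns and from 111 over 146 to 160 CPM in KO LPS, which do not overlap, a change of 1.56 ± 0.25. In WT it changed by 0.66 ± 0.28 and was not called (adjusted p = 0.0761; 0.33 by the labels). Trim21, a cytosolic antibody receptor, was not called in either genotype.

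Among the other interferon-inducible proteins 4 of 7 rose in each genotype. Lgals3bp, a secreted glycoprotein that binds galectins, ran from 139 over 214 to 249 CPM in KO ns and from 401 over 1458 to 1698 CPM in KO LPS. The groups are apart, and KO LPS 5 is the low library. Its log2 change was 2.72 ± 0.22 in KO (adjusted p = 1.73e-10) and 2.51 ± 0.25 in WT (adjusted p = 1.35e-08, 0.148 by the labels). Xaf1, a pro-apoptotic protein, had the smallest SE of the called members. It was at 21.4 to 32.2 CPM in KO ns and 74.0 to 106 CPM in KO LPS, with no overlap, and with changes of 1.73 ± 0.12 and 1.29 ± 0.14 (0.67 in WT by the labels). Rtp4, a chaperone of membrane receptors, rose by 2.20 ± 0.32 and 2.64 ± 0.38 (1.41 in WT by the labels).

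In the 18 members with the response element core in their window, the median log2 change with LPS in KO was 1.97, over a range of -1.09 to 2.95. In the 20 members with a window but no core it was 1.12, over a range of 0.25 to 3.24. The 2 ranges overlap over most of their length, and Oasl1, with the largest change in KO, is among the genes without a match. These medians are a description of the list and carry no test.

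The genes that act before the members were taken from lists drawn up for this purpose. Of 19 interferon genes, 0 passed the filter in the LPS experiment, and their summed level stayed at 1.59 CPM or less in every sample. Ifnb1, interferon beta, reached 1.13 CPM in WT LPS 7 and 0.896 CPM in KO LPS 5 and was at 0.279 CPM or less in all the others. The receptor chains moved little, with Ifnar1 at a log2 change of 0.57 ± 0.17 in KO (adjusted p = 0.013) and 0.21 ± 0.20 in WT, and Ifnar2 at -0.01 ± 0.09 and -0.02 ± 0.10.

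Of the 8 transcription factors of the pathway, 5 rose in KO and 4 in WT, and none fell. Irf7, the factor that amplifies interferon production, rose by 2.66 ± 0.28 in KO and 2.24 ± 0.31 in WT (adjusted p = 1.77e-08 and 2.92e-06). Stat2 rose by 1.55 ± 0.34 and 1.13 ± 0.39, and Irf9 by 0.82 ± 0.08 and 0.65 ± 0.10. Of 14 receptors and adaptors upstream of interferon, 6 rose in KO and 5 in WT. The largest change among them was that of Ikbke, a kinase that activates interferon regulatory factors, at 5.41 ± 0.55 and 4.36 ± 0.60. Zbp1, a sensor of left-handed nucleic acid, rose by 3.41 ± 0.22 and 2.89 ± 0.25. Cd14, the co-receptor that hands LPS to TLR4, rose by 1.02 and 2.02. Of 6 negative regulators 2 rose in each genotype, Socs3 by 3.44 ± 0.33 and 3.14 ± 0.38. With every library in its labelled group no gene of these lists was called in WT.

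Markers of the cell types in the isolate moved with LPS as well. Of 10 microglia markers 7 were lower in each genotype, and their summed level ran from 33734 to 52663 CPM in KO ns and from 21208 to 27045 CPM in KO LPS. Of 9 neutrophil markers none was called in KO and 1 was lower in WT, with summed levels of 296 to 10164 CPM in KO ns and 1014 to 4456 CPM in KO LPS. Of 6 monocyte markers 1 rose and 1 fell in each genotype. In KO, 3 of 6 border macrophage markers were lower (median log2 change -1.06), 3 of 6 dendritic cell markers were lower and 1 higher (-0.92), 2 of 4 B cell markers tested were lower (-1.84) and so were 2 of 4 T and NK cell markers (-1.62). The summed dendritic cell level was 20.2 to 59.4 CPM in KO ns and 6.23 to 13.9 CPM in KO LPS, which do not overlap. The part of these cells in the response of the members was not tested, and in bulk RNA fewer cells of a type and less RNA per cell cannot be told apart.

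The 4 WT libraries of number 2 lay nearer to the other treatment in these genes, as in Saa3. The mean log2(CPM + 1) over the 49 members was 5.40 in WT ns 1 and 5.82 in WT ns 5, above all 6 other WT ns libraries (4.36 to 5.07). It was 4.91 in WT LPS 1 and 5.12 in WT LPS 6, below all 6 other WT LPS samples (5.47 to 6.43). In WT ns 1, 36 of the 49 members lay above all 6 other WT ns libraries, as did 28.8% of all genes tested, and in WT ns 5, 37 did, against 35.3% of all genes. In WT LPS 1, 32 members lay below all 6 other WT LPS samples, against 21.2% of all genes, and in WT LPS 6, which has a high mitochondrial level, 28 did, against 30.2%. Both libraries labelled ns lay above both labelled LPS in 20 of the 49, against 15.2% of all genes. For Ifi204 the values were 170 and 321 CPM in those labelled ns and 34.9 and 101 CPM in those labelled LPS.

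**Figure D3:**
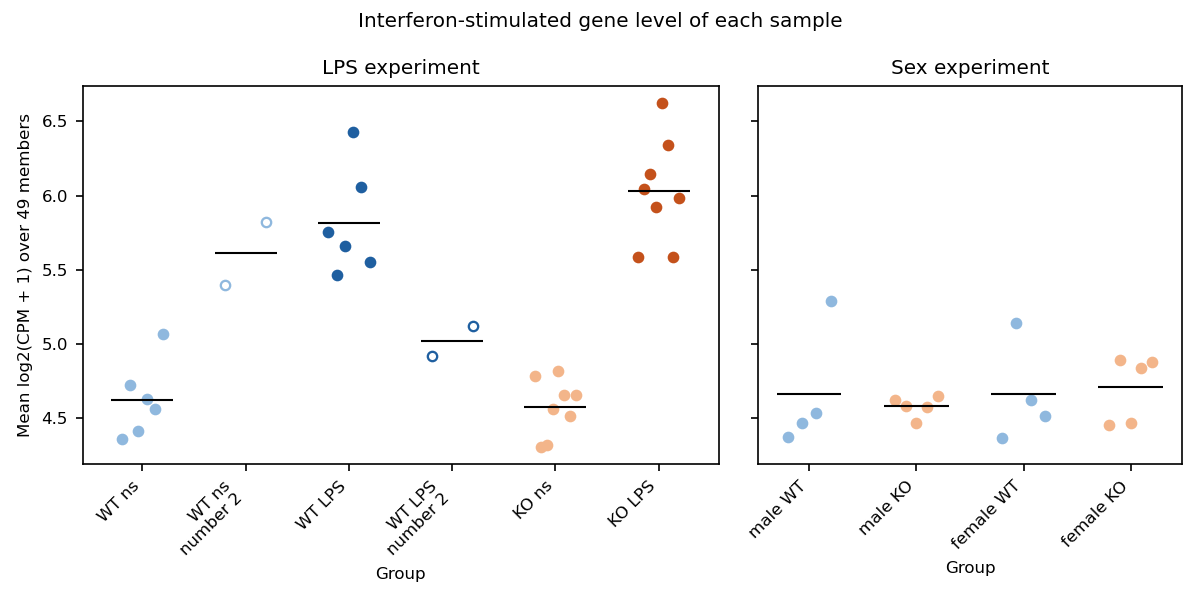
Mean log2(CPM + 1) over the 49 members, 1 point per sample and a line at the group mean, in the LPS experiment (left) and the sex experiment (right), whose tables were counted separately, so that levels are compared only within a panel. Open points are the WT libraries of number 2. KO LPS (5.59 to 6.62) lies above KO ns (4.31 to 4.82), and 2 WT animals of the sex experiment lie above the rest.

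Whether the deletion of P2RY12 changed these genes was asked at ns, under LPS and as a difference in response. At ns, 0 of the 49 members were called in KO against WT by edgeR, 3 had an unadjusted p under 0.05, DESeq2 also called 0, and 0.0883% of all genes tested were called. The median log2 difference over the members was 0.01 and the range was -1.36 to 0.85. Sp100, at 23.1 to 73.4 CPM in KO ns and 43.2 to 128 CPM in WT ns, had a difference of -0.65 ± 0.26 (adjusted p = 0.492). Its highest WT ns values, 113 and 128 CPM, belong to WT ns 3 and WT ns 8, where the summed neutrophil markers were at 17375 and 16161 CPM, against at most 3592 CPM in the other 4 libraries of that group. The median log2 difference of KO from WT at ns was -0.73 over the neutrophil markers and -0.79 over the monocyte markers, with 0 called, and the part of these cells in the difference was not tested. With every library in its labelled group 0 were called, 15 had an unadjusted p under 0.05, and the median was -0.36.

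Under LPS, 0 of the 49 members were called in KO against WT, 7 had an unadjusted p under 0.05, DESeq2 called 0, and 0.0946% of all genes tested were called. Most differences were small and positive, 39 of 49, with a median of 0.23 and a range of -0.35 to 0.79. The median and signs over all genes are not given here for this comparison. The 39 can thus not be read as particular to the members. Ly6e ran from 1006 over 1224 to 1947 CPM in WT LPS, against 1269 over 1898 to 2170 CPM in KO LPS, a log2 difference of 0.42 ± 0.15 (adjusted p = 0.57). Parp14 differed by 0.42 ± 0.17 and Mx1 by 0.67 ± 0.32, and neither was called. The SE of a member's difference ran from 0.13 to 0.579, which sets how small a difference this design can show. With every library in its labelled group 0 were called, 13 had an unadjusted p under 0.05, and the median was 0.41.

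The difference in response, KO minus WT, was tested as an interaction. Here 0 of 49 members were called by edgeR and 0 by DESeq2, 6 had an unadjusted p under 0.05, and 0% of all genes tested were called (0 of 15857). The median over the members was 0.27, against 0.06 over all genes tested. With every library in its labelled group the median was 0.79, 20 members had an unadjusted p under 0.05 and again 0 were called. The placement of the number 2 libraries thus moved the median by more than 1.5 times. The share of all genes at that unadjusted p is not given here, so the 20 cannot be read as particular to the members. Without WT LPS 7, KO ns 6 and KO LPS 5 the median was 0.19 and 1 member had an unadjusted p under 0.05.

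**Figure D4:**
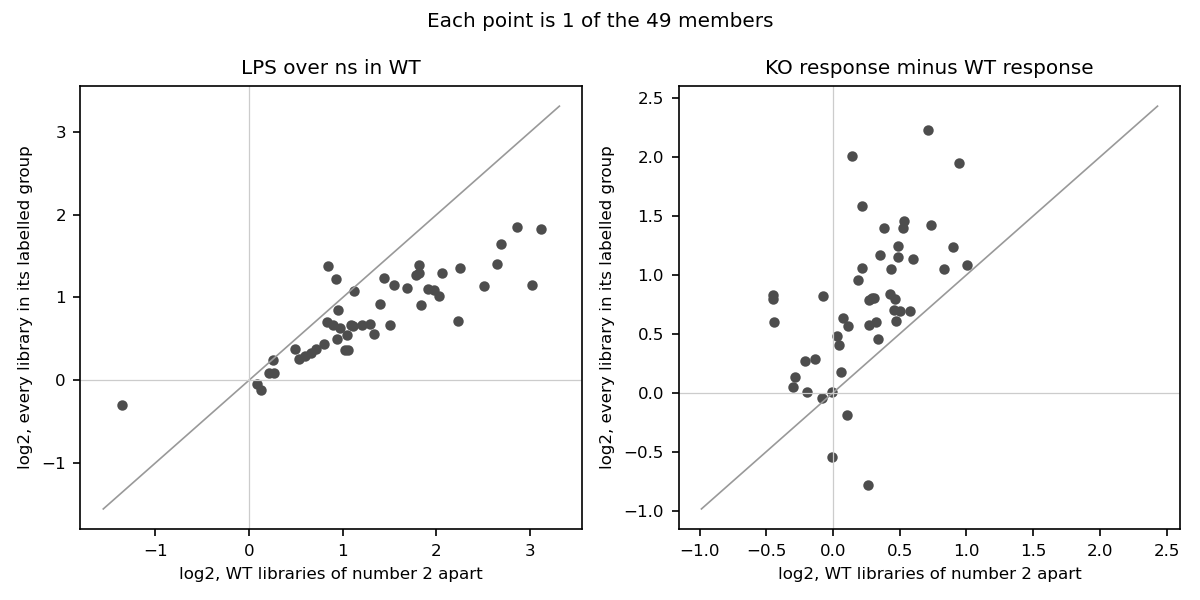
Log2 values of the 49 members with the WT libraries of number 2 apart (x axis) and with every library in its labelled group (y axis), for the response of WT to LPS (left) and for the response of KO minus that of WT (right), with a line of equal values. Most members lie under the line on the left and above it on the right, as the medians do (1.12 and 0.70 on the left, 0.27 and 0.79 on the right).

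In the sex experiment, KO was compared with WT in males, in females and over both. In males 0 of 49 members were called (3 with an unadjusted p under 0.05, 0 by DESeq2), and 0.00946% of all 31709 genes tested were. In females 0 were called by edgeR (4 with an unadjusted p under 0.05) and 1, Ly6e, by DESeq2 (log2 difference 0.30, adjusted p = 0.0392), where edgeR called 0.164% of all genes. Over both sexes 1 member, Bst2, was higher in KO, and 0.419% of all genes tested were called higher. DESeq2 called 3 members there, Bst2, Ly6e and Lgals3bp, each higher in KO. The percentages in this paragraph are of edgeR calls, so the DESeq2 counts stand without a share over all genes.

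Bst2 was at 22.35, 21.93, 23.58 and 18.36 CPM in the male WT animals and at 28.97, 29.68, 19.60, 28.87 and 26.59 CPM in the male KO. In females it was at 21.28, 21.46, 23.16 and 21.11 CPM in WT and at 27.003, 35.25, 25.04, 32.25 and 31.06 CPM in KO. The female groups do not overlap, and the male groups overlap through male KO 3. The log2 difference over both sexes was 0.39 ± 0.08 (adjusted p = 0.0387, edgeR). The call was lost in 14 of the 18 fits that leave out 1 animal each, with adjusted p from 0.0117 to 0.109 and log2 differences from 0.36 to 0.44. In the LPS experiment the same gene differed between KO and WT by 0.43 ± 0.31 at ns and by 0.22 ± 0.30 under LPS, and neither was called. At ns, KO ns 6, a library that stands apart, was at 194 CPM, and the other KO ns libraries were at 82.4 CPM or less.

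Lgals3bp, at 96.3 to 125 CPM in male WT and 133 to 163 CPM in male KO, differed by 0.35 ± 0.09 over both sexes (adjusted p = 0.0982). The male groups do not overlap, and the female groups, at 114 to 145 and 131 to 213 CPM, do. Ly6e differed by 0.22 ± 0.06 over both sexes (adjusted p = 0.119).

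Other members were high in 2 WT animals, male WT 5 and female WT 2. Rsad2 was at 69.5 CPM in male WT 5 and at 10.2 to 16.2 CPM in the other male WT animals, and at 40.6 CPM in female WT 2 against 6.40 to 8.44 CPM in the other female WT. Ifitm3 was at 154 and 131 CPM in these 2 animals and at 18.0 to 59.6 CPM in the other 16. The summed level of 9 neutrophil markers was 48495 CPM in male WT 5 and 28877 CPM in female WT 2, and at most 7729 CPM in every other animal. The part of neutrophils in the level of the members was not tested. Without these 2 animals the median log2 difference over the 49 members went from -0.03 to 0.20 over both sexes, with 44 members above 0 in place of 21, and 0 were called. In males the median went from -0.06 to 0.10 and in females from 0.02 to 0.30, with 0 called in each. Both animals left out are WT and had the highest mean log2(CPM + 1) over the members in this experiment, 5.29 and 5.14. They were chosen after the data were seen, so leaving them out lifts KO over WT in itself. Medians and signs over all genes are not given here for these fits.

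**Figure D5:**
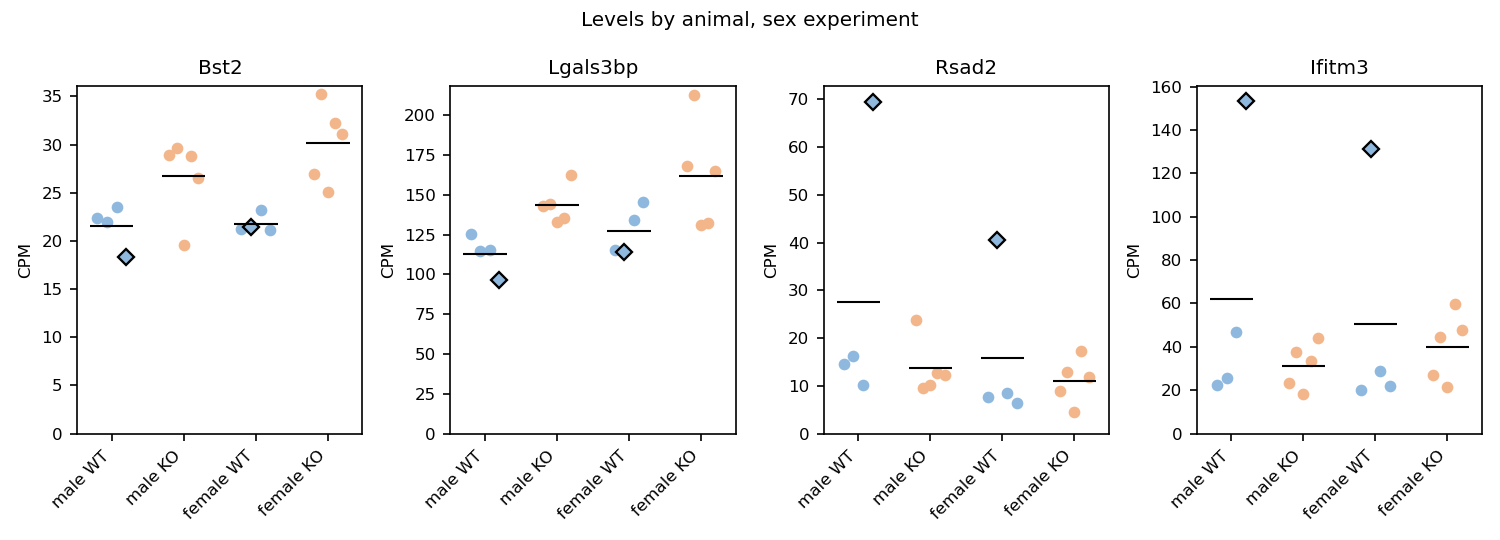
CPM of Bst2, Lgals3bp, Rsad2 and Ifitm3 in each animal of the sex experiment, 1 point per animal, with a line at the group mean. Diamonds are male WT 5 and female WT 2, the highest animals for Rsad2 (69.5 and 40.6 CPM) and Ifitm3 (154 and 131 CPM) and not for Bst2 or Lgals3bp.

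The difference between the sexes in their response to the deletion gave 0 called members (0 with an unadjusted p under 0.05, 0 by DESeq2) and 0% of all genes, 0 of 31709. Between female and male WT animals 0 members were called (3 with an unadjusted p under 0.05, 0 by DESeq2), and 0.0725% of all genes tested were. Of the lists around the pathway, 0 transcription factors of 8 and 0 receptors and kinases of 9 were called in KO against WT in any of these fits. Irf7 was highest in male WT 5 and female WT 2, at 26.9 and 22.8 CPM against 6.40 to 19.0 CPM in the others.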

How the data were processed

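Polyadenylated RNA was sequenced per the labels. The authors deposited 1 table of raw counts per gene for each experiment. The submitters' processing notes name FastQC, STAR 2.6.1, featureCounts, Subread, DESeq2 and GRCm39, with no role. Strand setting and annotation are not given in the sources used here. Of 57 libraries labelled, 6 repeats of a library match no column and are not analysed here. Counts were filtered with filterByExpr, scaled by TMM and tested with edgeR 4.0.16 in R 4.3.3, with a mean per group and, for LPS, the library set as covariate. WT libraries of number 2 had means of their own and WT LPS 8 and WT LPS 9 were summed (a chi-square per degree of freedom of 1.86 against at least 8.32 for other pairs). The filter left 15857 and 31709 genes. The fits for LPS in KO and for KO against WT in males were also run on simulated data. Those data had the same spread for all genes and no libraries that stand apart, and the outcome is not given here. Alternatives included DESeq2 1.42.0, other scaling and filters, library sets, a block and samples left out. Members and lists were chosen with earlier results of these data known. Genes given in full were, per role, the member with the highest mean CPM and the called member with the largest change for LPS in KO, the called members of other comparisons (the 8 lowest p where more), and others described were chosen after their values were seen. The values of 1 gene of the lists are not reported here.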

Additional observations from a re-analysis of the deposited data

Results flagged for a closer look

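Dixon's gap test was run on the named members and on the mean over all members, in groups of 4 to 8 samples. In 37 of 144 group values 1 sample lay far from the others. Chance alone does this in about 1 in 20 groups if values are normally distributed, which CPM values need not be. Most of the flagged samples are libraries that stand apart by correlation or by marker level. The part of those properties in the values below was not tested.

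KO LPS 5 was high for Ifit1 (162 CPM), Ifit3 (244), Rsad2 (119), Ifitm2 (109), Isg15 (90), Ifih1 (223), Ifi204 (446), Parp14 (476) and Trim30a (831). The same library was low for Adar (18.4 CPM), Trim25 (45.6), Dhx58 (24.1) and Lgals3bp (401). WT LPS 7 was high for Ifitm2 (163 CPM), Isg15 (104), Ifi204 (375) and Trim30a (689), and low for Adar (31.7) and Trim25 (25.5). KO ns 6 was high for Ifit3 (55.6 CPM), Isg15 (16.1) and Trim30a (386), and KO ns 5 for Ifih1 (55.4).

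In the sex experiment male WT 5 was high for Ifit3 (15.7 CPM), Rsad2 (69.5), Oasl1 (8.04), Adar (108), Trim25 (76.9), Ifi204 (62.3) and Sp100 (256). Female WT 2 was high for Rsad2 (40.6 CPM), Ifitm2 (80.5), Oasl1 (6.97) and Sp100 (177). Female KO 2 was high for Ifit3 (23.6 CPM) and Adar (105), and male KO 1 for Rsad2 (23.9).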

How the results depend on the processing

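The number of members called for LPS in KO stayed within 1.5 times of 44 in every alternative except library set 2 alone, with 23. For LPS in WT it did so around 35 except with every library in its labelled group, with 0, and in library set 2 alone, with 13. Set 1 alone gave 43 and 37, and the cause of the lower counts in set 2 was not tested. The shares of all genes called in the alternatives are not given here. In the comparisons of KO with WT, the replicate block, in which WT LPS 8 and 9 stayed separate samples, called 1 member at LPS (Ly6e, log2 difference 0.65, adjusted p = 0.0187) and DESeq2 called 1 in females. Over both sexes DESeq2 called 3, the replicate block 0, leaving out male WT 5 and female WT 2 gave 0, and leaving out 1 animal in turn gave 0 to 1. No call of a named value reversed. The alternatives without WT LPS 7, KO ns 6 and KO LPS 5 and without male WT 5 and female WT 2 were chosen after seeing the data.

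Shared replicate numbers were not taken to pair the samples, because only 20 of 32 and 15 of 24 same-numbered pairs correlated over 0.1. Same-numbered samples had a mean correlation of deviations of 0.246 over 32 pairs in the LPS experiment (-0.313 to 0.889). In the sex experiment it was 0.0994 over 24 pairs (-0.538 to 0.541). Pairs of unlike number had lower means, 0.162 over 103 pairs and -0.0193 over 97, so some pairing by number remains possible. The spread between libraries, a biological coefficient of variation of 40.95% and 35.34%, limits what differences between genotypes can be detected.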
